A study of Mus musculus with 2 samples.

Results

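The levels of 10 genes that write, copy, erase or protect DNA methylation were followed through single cells of mouse gastruloids, out of 22549 genes with a UMI in the cells. They were taken by gene symbol: Dnmt1, Uhrf1, Dnmt3a, Dnmt3b, Dnmt3l, Tet1, Tet2, Tet3, Zfp57 and Trim28. A gastruloid is a ball of embryonic stem cells that lays down an axis outside the embryo. Each well was seeded with about 300 R1 stem cells, either wild type or Sp5/8dko, in which both Sp5 and Sp8 are knocked out, in N2B27, a medium without serum. From day 2 all aggregates of both genotypes received 3 µM CHIR, an inhibitor of GSK3 that turns on Wnt signalling, for 12 h, and they were collected at day 2.5. Aggregates were pooled into 1 library per genotype, and how many clones stand behind the mutant cells is not given in the sources used here. With 1 library per genotype no difference can be tested, and every interval below is a 95% interval for counting error only.

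Methylation of cytosine at CpG dinucleotides is written by Dnmt3a and Dnmt3b with their cofactor Dnmt3l, and copied onto new DNA strands by Dnmt1, which Uhrf1 brings to half-methylated sites. Tet enzymes oxidise methylcytosine and so start its removal, while the zinc finger protein Zfp57 binds methylated imprinting control regions and recruits Trim28, a scaffold for silencing enzymes. Naive mouse stem cells can have low methylation, and the embryo gains methylation as the epiblast is primed for gastrulation. Methylation itself was not measured here.

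All 10 are protein-coding genes on 8 chromosomes (GENCODE M21, GRCm38). The maintenance genes are Dnmt1 at chr9:20907209-20959888 and Uhrf1 at chr17:56303321-56323486, and the writers Dnmt3a at chr12:3806007-3914443, Dnmt3b at chr2:153649450-153687730 and Dnmt3l at chr10:78041947-78063622. The erasers are Tet1 at chr10:62804570-62908996, Tet2 at chr3:133463679-133545139 and Tet3 at chr6:83362373-83459084, and the imprint keepers Zfp57 at chr17:37001163-37010635 and Trim28 at chr7:12999114-13031035. In RefSeq (GRCm38.p6) all 10 matched, with 19 upstream windows of 250 bases. The windows of 4 genes are shown because the level of Dnmt3l and Zfp57 differed most between naive-like and streak-like cells, while Dnmt3b and Trim28 are the writer and the corepressor that they work with. All are written 5′ to 3′ on the plus strand, capitals mark CpG dinucleotides, the bases that these enzymes act on, and none overlaps an exon of GENCODE M21.
Dnmt3l, chr10:78049592-78049841: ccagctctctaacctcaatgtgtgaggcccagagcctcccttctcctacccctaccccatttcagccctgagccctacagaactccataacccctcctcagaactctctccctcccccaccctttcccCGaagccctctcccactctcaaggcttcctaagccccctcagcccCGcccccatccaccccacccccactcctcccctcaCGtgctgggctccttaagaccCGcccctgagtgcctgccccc
Zfp57, chr17:37000913-37001162: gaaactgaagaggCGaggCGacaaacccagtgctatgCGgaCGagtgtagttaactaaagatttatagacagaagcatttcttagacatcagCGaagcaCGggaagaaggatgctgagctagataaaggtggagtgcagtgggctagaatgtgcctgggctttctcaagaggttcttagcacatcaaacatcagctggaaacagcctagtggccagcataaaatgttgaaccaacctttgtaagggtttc
Dnmt3b, chr2:153649199-153649448: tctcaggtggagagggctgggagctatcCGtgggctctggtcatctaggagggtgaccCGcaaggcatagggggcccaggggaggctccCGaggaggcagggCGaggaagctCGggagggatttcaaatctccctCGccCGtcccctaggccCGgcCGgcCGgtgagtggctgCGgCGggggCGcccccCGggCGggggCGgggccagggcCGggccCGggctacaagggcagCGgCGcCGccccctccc
Trim28, chr7:13023902-13024151: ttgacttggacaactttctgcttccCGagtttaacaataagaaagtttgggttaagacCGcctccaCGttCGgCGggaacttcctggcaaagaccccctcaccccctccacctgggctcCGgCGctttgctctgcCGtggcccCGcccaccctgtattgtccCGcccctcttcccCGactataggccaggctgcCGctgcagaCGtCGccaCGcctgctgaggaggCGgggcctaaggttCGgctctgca
The Dnmt3l window shown has 4 CpG and the Zfp57 window 6, against 21 for Dnmt3b and 17 for Trim28. The median over all 32851 windows in the table was 6. Dnmt3l and Zfp57 were the 2 members with fewer than 10 CpG in every one of their windows, at most 5 for Dnmt3l and at most 7 for Zfp57. The other 8 had from 15 (Tet1) to 51 (Tet2) in their richest window. The GC box GGGCGG, searched on both strands, was found in 32.7% of all windows. Counted by gene, 9 members had it in at least 1 window, all but Zfp57. Members have up to 3 windows each, so this count by gene is not read against the share of windows. Counts from the 3′ end do not tell which start site was used.

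After filtering, 8707 cells remained of the library labelled wild type (WT-labelled) and 10587 of the library labelled Sp5/8dko (dko-labelled), with medians of 10571 and 8637 UMIs per cell. The libraries shared 27 cell barcodes (0.310% and 0.255% of their cells). Both target genes went against the label. Sp5 stood at 109 CPM (UMIs of a gene scaled to the total of its cells) in the WT-labelled library and at 479 CPM in the dko-labelled library, and Sp8 at 20.8 and 40.1 CPM. A direction between the libraries is therefore no measure of losing either gene. Where the alleles are changed is not given in the sources used here, and 3′ counts can lie outside the changed stretch.

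Between the libraries 0 of 10 genes reached a log2 ratio of 0.32 in either direction. Among all 7607 genes with a mean of at least 10 CPM, 3.44% were past that limit. A count of 0 of 10 is near that share and tells nothing particular of the members. Of the members, 7 reach a mean of 10 CPM and Dnmt3l, Tet2 and Zfp57 do not. Against the log2 ratios of the 7607 genes, Tet2 stood at percentile 8.10 and Dnmt3a at 11.8, Trim28 at 90.7 and Zfp57 at 97.0. The widest gap was 1.19-fold, for Zfp57. The interval excluded 0 for 6 members (Dnmt1, Dnmt3a, Dnmt3b, Tet1, Zfp57 and Trim28), and the log2 ratio over all genes had an SD of 0.16 and a median of -0.02.

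Among the maintenance genes, Dnmt1 stood at 124 CPM (121 to 126) in the WT-labelled library and at 115 CPM (113 to 118) in the dko-labelled library, a log2 ratio of -0.10 (-0.14 to -0.06). Uhrf1 was level at 127 CPM in both, with a log2 ratio of 0.00 (-0.04 to 0.03).

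Among the writers, Dnmt3b, the main writer of the early epiblast, stood at 724 CPM (718 to 729) and 770 CPM (764 to 775). Its log2 ratio of 0.09 (0.07 to 0.10) became -0.02 when each cluster of cells was given the same weight in both libraries. Dnmt3a stood at 44.3 CPM (43.0 to 45.7) and 39.2 CPM (38.0 to 40.5), a log2 ratio of -0.18 (-0.24 to -0.11), so it was the writer with the lower level in the dko-labelled library. Dnmt3l, which has no catalytic activity and stimulates the other two, stood at 4.07 CPM (3.67 to 4.49) and 4.29 CPM (3.89 to 4.72), within counting error.

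Of the 3 Tet genes, Tet1 stood at 76.3 and 71.2 CPM, a log2 ratio of -0.10 (-0.15 to -0.05). Tet3 stood at 29.1 and 27.7 CPM, with a log2 ratio of -0.07 (-0.15 to 0.00). Tet2 was thinly counted, with 162 and 141 UMIs over all cells, or 1.67 and 1.44 CPM, and its interval of -0.54 to 0.13 holds both directions. Of the imprint keepers, Trim28 stood at 357 CPM (354 to 361) and 399 CPM (395 to 403), a log2 ratio of 0.16 (0.14 to 0.18). Zfp57 stood at 3.84 CPM (3.46 to 4.25) and 4.58 CPM (4.16 to 5.02), a log2 ratio of 0.25 (0.05 to 0.46). Both keepers were thus on the higher side in the dko-labelled library, and over all cells both were under the limit of 0.32.

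**Figure D1:**
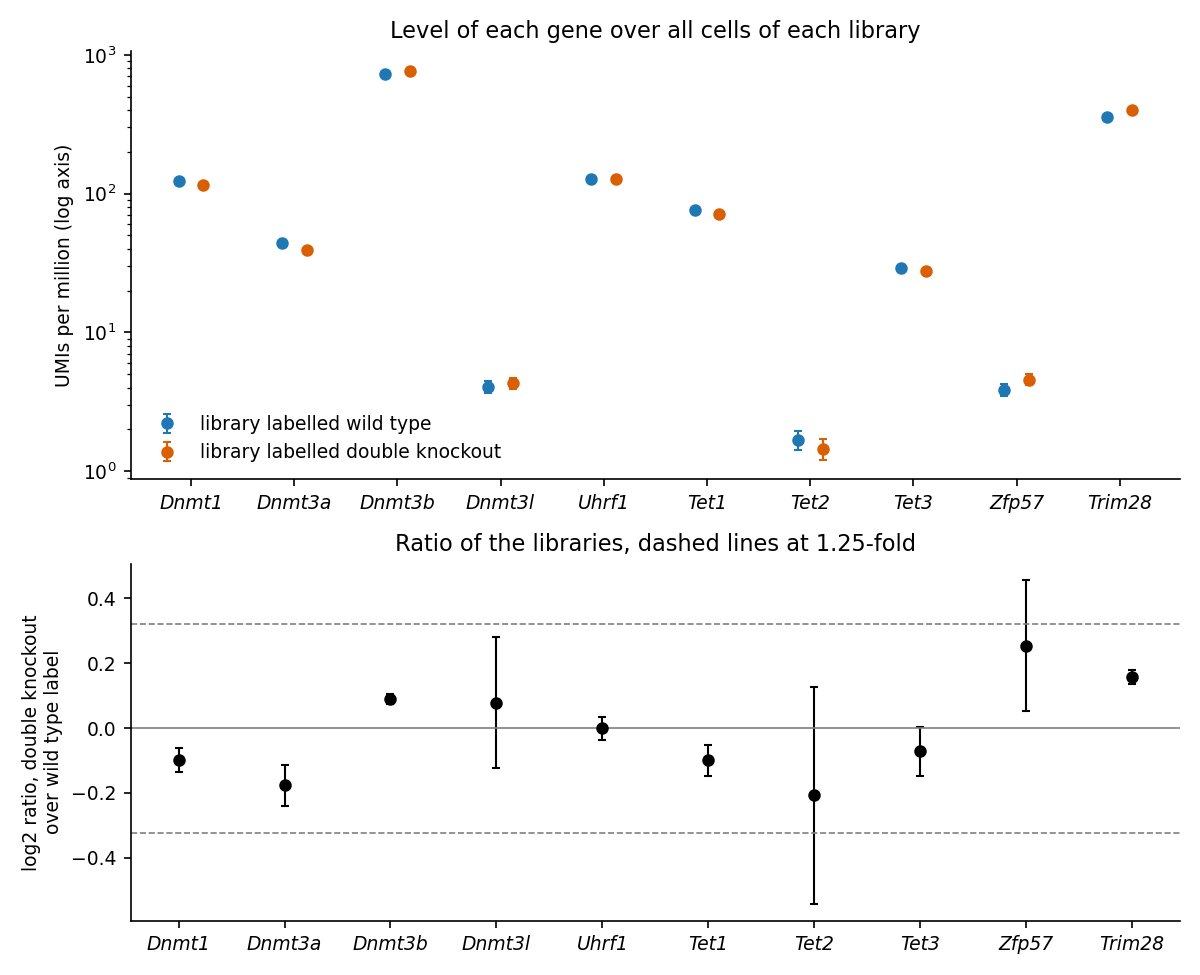
Upper panel, CPM of each gene over all cells of each library, on a log axis, with 95% counting intervals as bars. Lower panel, the log2 ratio of the dko-labelled library over the WT-labelled library with its counting interval, where every point lies between the dashed lines at 0.32 and -0.32 and Zfp57 is highest at 0.25. The axis compares 1 gene between libraries and not genes with each other.

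Cells were then grouped by clusters that were found without the 10 genes, their partner genes or Sp5 and Sp8. Cluster 3 was called naive-like, since 10 of 13 naive markers were at least 1.5-fold higher than in the other cells. It holds 469 cells in the WT-labelled library and 513 in the dko-labelled library. Zfp42 stood at 100 CPM there against 16.3 CPM in streak-like cells of the WT-labelled library, and at 76.3 against 17.2 CPM in the other. Klf4 stood close in both classes, at 7.59 against 5.87 CPM and 7.52 against 6.80 CPM, and Nanog was lower in naive-like cells, at 94.7 against 145 CPM and 98.2 against 149 CPM. Germ cell markers moved with the naive-like class, 3 of 5 in one library and 4 of 5 in the other being 1.5-fold or more higher, with summed levels of 34.8 and 38.3 CPM against 27.6 and 28.7 CPM and none at 0. Some primed and streak markers were also higher there, Pou3f1 at 126 against 66.9 CPM and 126 against 65.5 CPM, Otx2 at 72.4 against 43.8 CPM and 96.7 against 66.1 CPM, and Lefty2 at 41.0 against 17.6 CPM and 64.3 against 19.3 CPM. Both lists were lower in sum in naive-like cells. The 8 primed markers summed to 893 against 984 CPM and 879 against 1061 CPM. The 14 streak markers summed to 314 against 488 CPM and 393 against 665 CPM. T stood at 18.5 against 59.8 CPM and 29.0 against 65.2 CPM, and Fgf5 at 73.7 against 91.9 CPM and 79.3 against 113 CPM. The part of these markers in the results below was not tested. Streak-like cells are clusters 0 and 2, with 4101 and 6651 cells. The leading genes of cluster 0 include Fgf8, Gsc and Eomes but also Car4, Trh, Tdgf1 and Pla2g1b. Of 14 streak markers, 6 were at least 1.5-fold higher there than in the other cells. Those leading cluster 2 include Mesp1, Foxa2, Mixl1, Cdx2 and T, with 8 of 14 streak markers higher. Cluster 0 holds 2933 and 5912 of the streak-like cells, so it makes up most of the class.

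Dnmt3l separated naive-like from streak-like cells far more than any other member. It stood at 30.9 CPM (26.3 to 36.1) in naive-like and 3.47 CPM (2.96 to 4.03) in streak-like cells of the WT-labelled library, 8.93-fold apart. In the dko-labelled library it stood at 35.7 CPM (30.5 to 41.5) and 3.04 CPM (2.62 to 3.49), 11.8-fold apart. It was the 1 member of 10 at least 2-fold apart in the same direction in both libraries, a limit that 1.09% of the 7599 genes with a mean of at least 10 CPM passed, and 0.895% in the higher direction. The lower direction held 0.197% of all genes and 0 members. Of the members, 8 reach that mean, and Zfp57 and Tet2 do not. Dnmt3l reaches it only through naive-like cells, so it had to differ to be counted, and its count is a description that is not read against that share. Dnmt3l was also among the 10 leading genes of cluster 3 although it took no part in finding it, so its height there describes the cluster and is no test.

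Zfp57 followed, at 8.56 CPM (6.22 to 11.5) against 3.26 CPM (2.77 to 3.81) in the WT-labelled library, from 44 UMIs in naive-like cells. In the other library it stood at 8.60 CPM (6.14 to 11.7) against 4.61 CPM (4.10 to 5.16). These are 2.65-fold and 1.89-fold, so the limit was passed in 1 library. The difference between those log2 ratios, -0.49, has an interval from -1.16 to 0.18. Between the libraries the naive-like level did not differ beyond counting error, with a log2 ratio of 0.01 (-0.65 to 0.66), while in streak-like cells it was 0.50 (0.22 to 0.79).

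Tet1, the Tet gene best known from stem cells, stood at 111 CPM (102 to 120) against 76.6 CPM (74.2 to 79.1), a log2 difference of 0.53 (0.40 to 0.66), and at 109 against 71.3 CPM in the other library, 0.62 (0.48 to 0.75). Dnmt3a was also on the higher side, at 65.0 against 50.8 CPM and 63.6 against 42.5 CPM, with log2 differences of 0.36 (0.18 to 0.52) and 0.58 (0.40 to 0.76). So Dnmt3l, Zfp57, Tet1 and Dnmt3a were each higher in naive-like cells of both libraries with intervals that exclude 0. Against streak-like cluster 2 alone the log2 difference of Zfp57 was 1.53 (0.86 to 2.21) in the WT-labelled library. In the dko-labelled library it was 0.67 (-0.02 to 1.38), an interval that holds 0. For Dnmt3a the direction turned when cells were taken by a gate on marker genes in place of clusters (30 and 16 naive-like cells), at -0.29 in both libraries. That gate takes cells of any cluster and does not leave out the extraembryonic endoderm-like one. Dnmt3a stood there at 14.8 CPM from 4 UMIs and 39.5 CPM from 9 UMIs. The part of such cells in the turn was not tested.

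Dnmt3b did not share that pattern, at 849 CPM (824 to 875) against 847 CPM (839 to 855) and 882 CPM (855 to 909) against 870 CPM (863 to 878). Its log2 differences were 0.00 (-0.04 to 0.05) and 0.02 (-0.03 to 0.06), which leaves room for at most a small difference over the class as a whole. The 2 streak-like clusters were not alike in this. Against cluster 0 the Dnmt3b log2 difference was -0.04 (-0.09 to 0.00) and -0.01 (-0.06 to 0.03). Against cluster 2 it was 0.15 (0.10 to 0.20) and 0.34 (0.28 to 0.40). Trim28 was 0.10 (0.04 to 0.17) and 0.18 (0.12 to 0.25) higher on the log2 scale, Uhrf1 0.10 (-0.01 to 0.21) and 0.18 (0.06 to 0.29). Dnmt1 lay slightly on the other side, at -0.07 (-0.19 to 0.06) and -0.14 (-0.28 to -0.01). Tet3 was level, at -0.02 (-0.32 to 0.25) and 0.13 (-0.15 to 0.39), and Tet2 had 8 and 4 UMIs in naive-like cells, too few to compare. For all 10 genes the interval of the difference between the libraries' naive-like to streak-like ratios held 0.

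**Figure D2:**
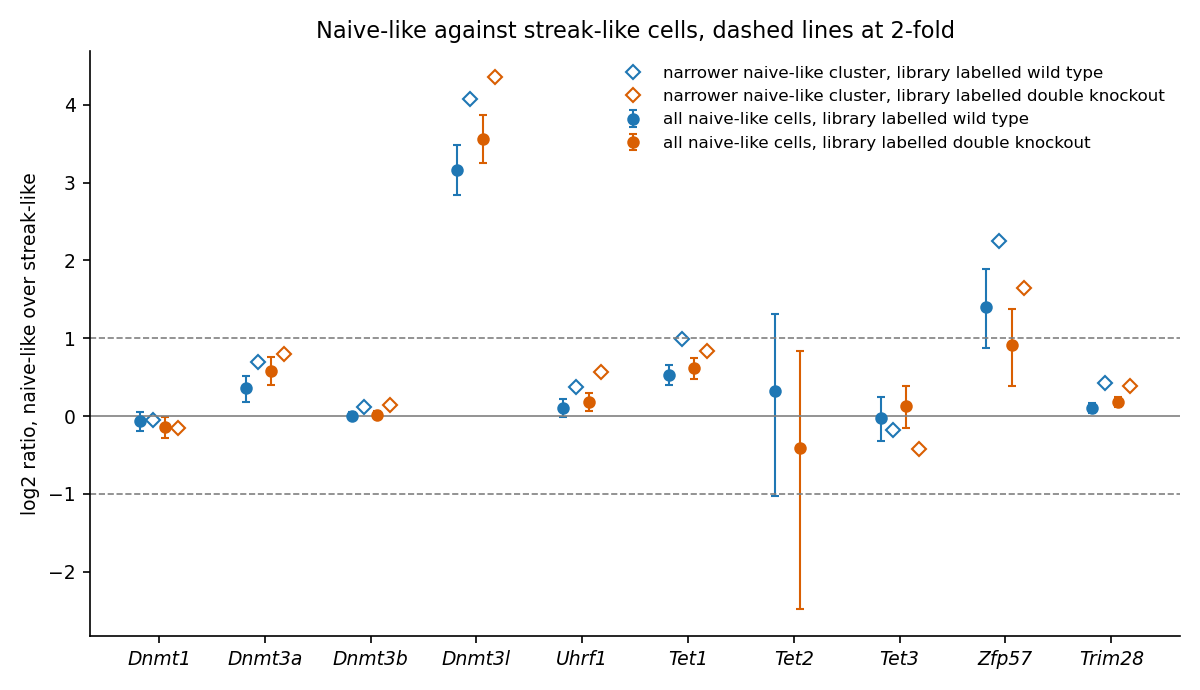
Log2 ratio of naive-like over streak-like cells for each gene and library, with 95% counting intervals, and as open diamonds the same ratio for the narrower naive-like cluster found at the lower resolution (drawn without intervals, and not drawn for Tet2). Dnmt3l stands at 3.16 and 3.56, above the dashed line at 2-fold in both libraries, and the diamonds of Dnmt3l, Zfp57 and Tet1 stand higher still.

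The naive-like cluster was not uniform. At a resolution of 0.3 in place of 0.5 the naive-like cluster held 173 and 201 cells, of which 167 and 200 came from cluster 3. Against streak-like cells of the same resolution the log2 difference of Dnmt3l was 4.07 (3.74 to 4.40) and 4.35 (4.03 to 4.67), that of Zfp57 2.24 (1.63 to 2.78) and 1.65 (1.00 to 2.19), and that of Tet1 0.98 (0.80 to 1.15) and 0.83 (0.64 to 1.01). Here Zfp57 passed 2-fold in both libraries. Dnmt3b stayed close to level at 0.11 (0.04 to 0.18) and 0.14 (0.08 to 0.21). Within cluster 3, Dnmt3l stood at 65.8 CPM in the narrower set against 11.3 CPM in the remaining cells, and at 67.7 against 13.5 CPM in the other library. Uhrf1 stood at 170 against 120 CPM and 187 against 114 CPM, while Tet3 was on the lower side at 17.3 against 25.2 CPM and 18.4 against 32.0 CPM. Log2 differences excluded 0 on the higher side in both libraries for 7 members. Beside Dnmt3l, Zfp57 and Uhrf1 these were Tet1 (0.88 and 0.44), Trim28 (0.58 and 0.39), Dnmt3a (0.62 and 0.39) and Dnmt3b (0.23 and 0.20).

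Cells of cluster 3 were then split by how many of 7 naive markers had a UMI (Zfp42, Klf4, Tfcp2l1, Esrrb, Nr0b1, Tbx3 and Tcl1), a division that no member enters. With 0 markers there were 234 and 301 cells, with 1 there were 171 and 169, with 2 there were 43 and 31, and with 3 or more there were 21 and 12. Median depth ran from 9301 to 11144 UMIs over these groups in the WT-labelled library and from 8350 to 9492 in the other. The last group is small, so its values rest on few UMIs.

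Dnmt3l stood at 16.2 CPM (11.5 to 22.2) in cells with 0 markers and at 142 CPM (96.2 to 201) in cells with 3 or more in the WT-labelled library, and at 28.1 CPM (22.0 to 35.3) and 109 CPM (54.4 to 195) in the other. Zfp57 stood at 4.69 CPM (2.34 to 8.39) and 54.8 CPM (28.3 to 95.7), from 12 UMIs, and at 5.39 CPM (2.95 to 9.04) and 69.4 CPM (27.9 to 143), from 7 UMIs. For both genes the intervals of the outer groups do not overlap in either library.

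Dnmt3b went from 810 CPM (774 to 847) with 0 markers over 898 and 1038 CPM with 1 and 2 to 361 CPM (286 to 449) with 3 or more. In the dko-labelled library it went from 869 CPM (834 to 906) over 923 and 987 CPM to 208 CPM (129 to 318). The cells richest in naive markers were thus low in Dnmt3b in both libraries, while the mean was highest in those with 2 markers, where intervals overlap those with 1 in the dko-labelled library. Without the last group, which has 21 and 12 cells, the Dnmt3b means run upward with the number of markers, so the low value rests on those cells. Over the whole class Dnmt3b was level.

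Tet1 stood at 95.9 CPM (83.7 to 109) with 0 markers and 228 CPM (169 to 301) with 3 or more, and at 97.8 CPM (86.1 to 111) and 188 CPM (113 to 294) in the other library. Trim28 stood at 340 CPM (316 to 364) and 584 CPM (488 to 695), and at 431 CPM (407 to 458) and 971 CPM (789 to 1184). Dnmt3a had 8 and 2 UMIs in the last group, or 36.5 CPM (15.8 to 72.0) and 19.8 CPM (2.40 to 71.6), against 59.6 and 57.7 CPM with 0 markers, so its intervals overlap. Uhrf1 stood at 164 CPM (115 to 228) and 198 CPM (121 to 306) against 133 and 135 CPM, and Dnmt1 at 128 CPM (84.9 to 185) and 79.3 CPM (34.2 to 156) against 110 and 95.1 CPM, each with overlapping intervals. Across all cells outside the extraembryonic endoderm-like cluster, 31 and 20 cells had 3 or more markers, with Dnmt3b at 606 and 334 CPM against 705 and 758 CPM in cells with 0.

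**Figure D3:**
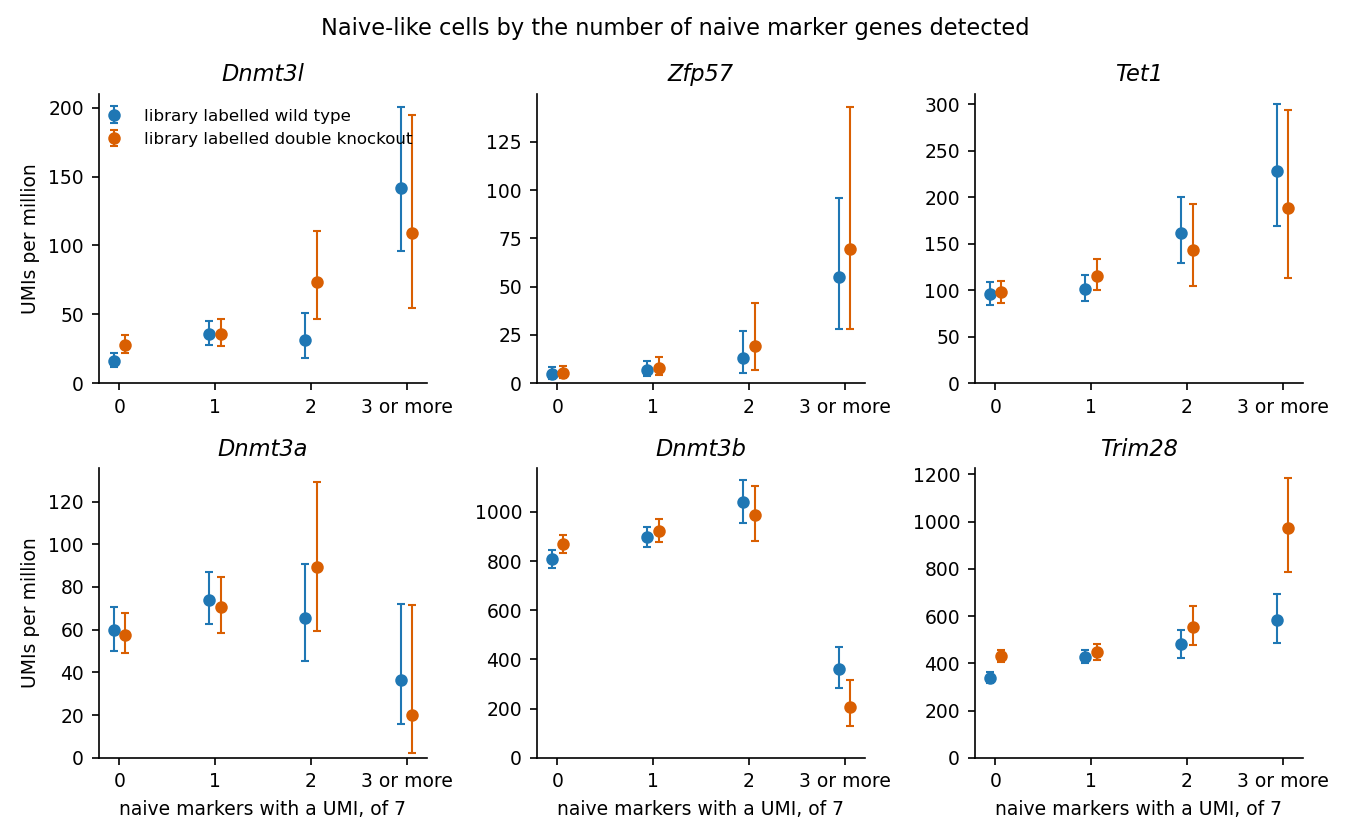
Naive-like cells (cluster 3) by the number of 7 naive marker genes with a UMI, on the horizontal axis, against CPM of 6 members, with 95% counting intervals. Dnmt3l, Zfp57, Tet1 and Trim28 are highest in the 21 and 12 cells with 3 or more markers, where Dnmt3b is lowest at 361 and 208 CPM.

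Across the 6 clusters that hold 100 cells or more per library, Dnmt3b and Tet3 stood at opposite ends in neural-like cells, while Tet1 and Dnmt3a were both highest in naive-like cells. Dnmt3b was highest in cluster 0 at 874 and 889 CPM, with naive-like cells next and intervals that overlap, then lower in cluster 2 at 767 and 697 CPM, in cluster 1 (led by Irx3, Gbx2 and Meis2, unnamed) at 614 and 578 CPM, then cluster 4 at 311 and 300.3 CPM, and lowest in the neural-like cluster 5 at 205 CPM (189 to 223) and 184 CPM (167 to 203). Between cluster 5 and cluster 0 the log2 difference was -2.09 (-2.21 to -1.97) and -2.27 (-2.41 to -2.13). Cluster 5, with 300 and 291 cells, is led by Pou3f2, Ebf3 and Sox1, and a UMI of Dnmt3b was found in 34.7% of its cells thinned to 2500 UMIs in the WT-labelled library, against 83.6% of streak-like cells. Unthinned, the shares were 65.3% and 99.1%.

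Tet3 had the opposite order at its head. It was highest in the neural-like cluster at 65.1 CPM (56.1 to 75.2) and 51.2 CPM (42.4 to 61.3), followed by cluster 1 at 35.8 and 36.0 CPM. Naive-like cells and both streak-like clusters lay between 20.9 and 26.4 CPM, with overlapping intervals among neighbours in this order. Against cluster 0 the neural-like log2 difference was 1.48 (1.24 to 1.71) and 1.06 (0.78 to 1.33). Tet2 stood at 4.58 CPM (2.44 to 7.82) there, from 13 UMIs, against 1.92 CPM in cluster 1 of the WT-labelled library. In the dko-labelled library the order was turned, at 1.72 CPM (0.47 to 4.41) from 4 UMIs against 2.02 CPM (1.49 to 2.67), with overlapping intervals.

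Dnmt3a was highest in naive-like cells, then level between both streak-like clusters at 50.3 and 52.6 CPM in the WT-labelled library and 42.8 and 40.2 CPM in the other, and lower in cluster 1 at 35.6 and 29.1 CPM and in the neural-like cluster at 31.3 and 20.7 CPM, whose intervals overlap those of cluster 1. So both catalytic writers were lower in neural-like than in Fgf8-led streak-like cells, Dnmt3a by a log2 difference of -0.67 (-1.01 to -0.37) and -1.03 (-1.49 to -0.64). Within the streak, Dnmt3l stood at 4.22 CPM (3.57 to 4.94) in cluster 0 and 1.23 CPM (0.69 to 2.03) in cluster 2, and at 3.30 CPM (2.85 to 3.80) and 0.63 CPM (0.17 to 1.63), the last from 4 UMIs. The log2 difference was 1.73 (1.01 to 2.65) and 2.21 (1.00 to 4.27), with Dnmt3l at 4.34 and 5.63 CPM in barcodes that hold free RNA, whose part in this was not tested.

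Tet1 was highest in naive-like cells, and its next 4 clusters lay between 62.8 and 81.5 CPM with overlapping intervals among neighbours. Dnmt1, Trim28 and Uhrf1 varied least, 2.36-fold, 1.87-fold and 2.44-fold over the 6 clusters and 1.22-fold, 1.23-fold and 1.24-fold without cluster 4. Among the 5 clusters other than cluster 4, the highest and lowest mean of Dnmt1 were 131 CPM (cluster 2) and 108 CPM (naive-like), 1.22-fold apart. Uhrf1 was highest in the neural-like cluster at 142 CPM (129 to 157) and 170 CPM (154 to 188), although neighbours in its order overlapped. Trim28 was 400 and 457 CPM in naive-like cells, 415 and 423 CPM in cluster 2, and 320 and 375 CPM in the neural-like cluster.

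Cluster 4, unnamed, holds 325 and 356 shallow cells with median depths of 3674 and 3226 UMIs and a median mitochondrial share of 0.23% in both libraries. Uhrf1, Dnmt1, Tet1, Tet3 and Trim28 were lower there than in any of the other 5 clusters, Tet3 at 3.88 and 4.77 CPM, Tet1 at 18.6 and 14.3 CPM and Trim28 at 221 and 238 CPM. Dnmt3a, Dnmt3l, Tet2 and Zfp57 also had their lowest mean of the 2 libraries there, with intervals that overlap the next cluster. The part of depth and RNA quality in this was not tested. Leaving the cluster out left 0 of 10 members past 0.32 between libraries. The extraembryonic endoderm-like cluster has 24 and 22 cells, with Dnmt3l at 37.0 CPM (17.8 to 68.1) and 79.0 CPM (46.8 to 125) from 10 and 18 UMIs, so high Dnmt3l was not particular to naive-like cells. In naive-like cells the 10 markers of that type summed to 8.36 and 5.80 CPM, against 9.05 and 8.38 CPM in streak-like cells, with Cubn and Apoa1 at 0 in the WT-labelled library and Sox17, Sox7, Ttr and Pdgfra at 0 in the other.

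**Figure D4:**
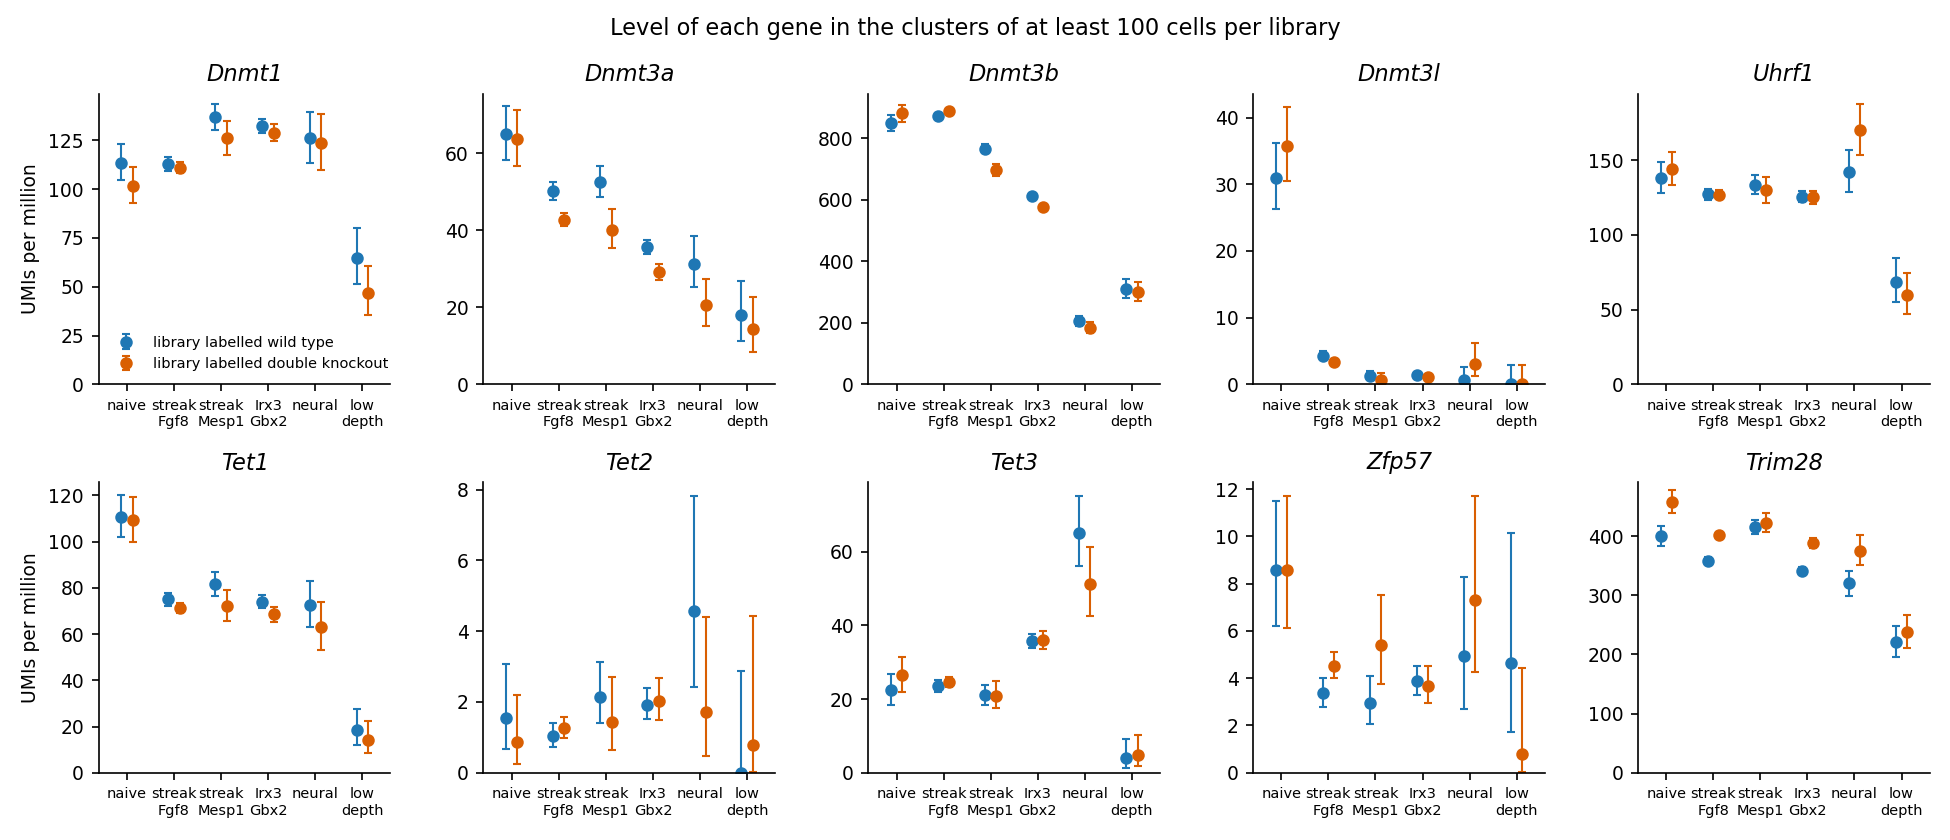
CPM of each gene in the 6 clusters that hold 100 cells or more per library, each panel with its own linear axis from 0 and 95% counting intervals. Dnmt3l and Tet1 are highest in naive-like cells, Dnmt3b is lowest and Tet3 highest in the neural-like cluster, and the shallow cluster 4 is low for most genes.

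Tet3 lies on chromosome 6, and 21.3% and 18.2% of cells with at least 4000 UMIs had a chromosome 6 share at or under 0.8 times the median. Tet3 was lower in them by a log2 difference of -0.42 (-0.57 to -0.27) and -0.39 (-0.56 to -0.24), with all clusters pooled. The median of 376 other genes of that chromosome was -0.49 and -0.54. Those genes defined the low cells, so their drop was fixed by the choice and is no measure for Tet3. Cells low on chromosome 6 made up 76.7% and 57.0% of cluster 2 and 14.7% and 16.1% of cluster 5. The part of cluster make-up in the pooled difference was not tested. In the remaining cells the neural-like level of Tet3 was 67.4 CPM (57.5 to 78.5) and 49.8 CPM (40.4 to 60.8), that of cluster 1 was 37.2 CPM (35.2 to 39.3) and 38.5 CPM (35.7 to 41.4), and that of cluster 0 was 23.9 and 25.4 CPM. In cluster 2 the remaining cells stood at 20.4 CPM (15.6 to 26.2) and 26.5 CPM (20.6 to 33.4). The whole of cluster 2 stood at 21.0 and 20.9 CPM, with overlapping intervals, so no drop beyond counting error was seen there. The neural-like cluster kept the highest level, but in the dko-labelled library its interval then overlapped that of cluster 1.

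Cells were scored for cell cycle phase on gene lists that hold none of the 10 genes. Uhrf1, which works at replication forks, was the member that differed most with phase. It stood at 160 CPM (156 to 164) in cells scored as S and 112 CPM (109 to 115) in cells scored as G2/M in the WT-labelled library, 1.43-fold apart, and at 157 CPM (152 to 161) and 114 CPM (112 to 117) in the other, 1.37-fold. Of all genes, 0.871% were past 0.32 on the log2 scale in both libraries, with S higher, and 1 of 10 members was. Dnmt1, its partner, was nearly level, at 1.07-fold and 1.02-fold, and Dnmt3a stood at 1.14-fold and 1.13-fold. Scores read free RNA as well as the cell, and cells scored as G1 were too few, at 2.24% and 2.34%, to serve as a group of their own.

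**Figure D5:**
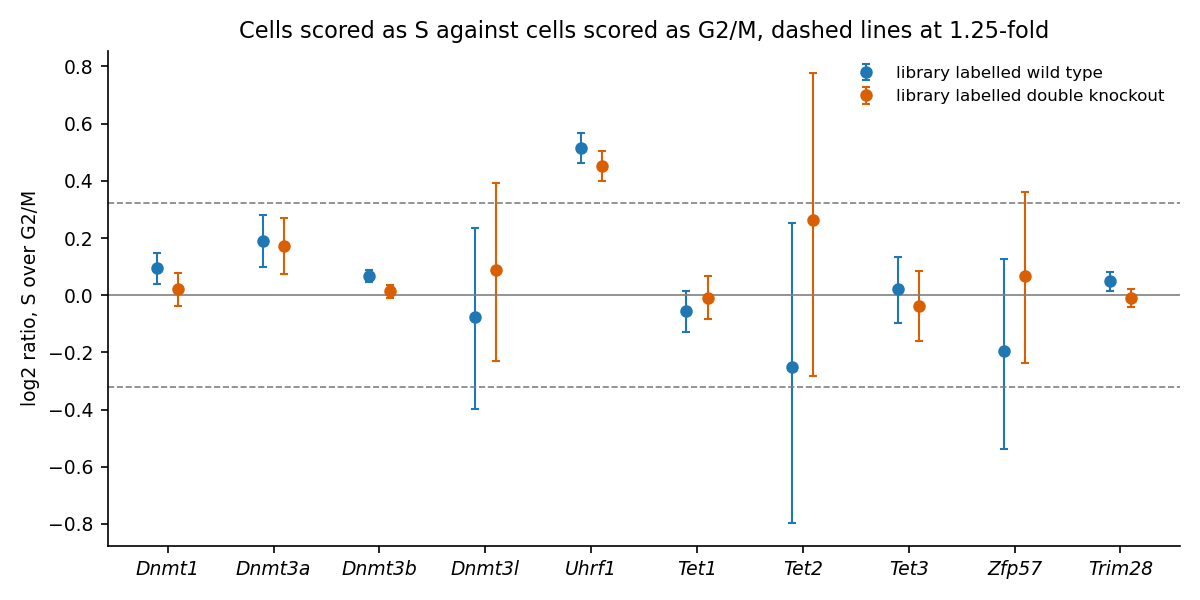
Log2 ratio of cells scored as S over cells scored as G2/M for each gene and library, with 95% counting intervals and dashed lines at 0.32 and -0.32. Uhrf1 stands at 0.52 and 0.45, above the line in both libraries, and Dnmt1 at 0.09 and 0.02.

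In cells thinned to 2500 UMIs, a UMI of Dnmt3l was found in 5.54% (3.65 to 8.02) of naive-like and 0.90% (0.64 to 1.24) of streak-like cells in the WT-labelled library, and in 8.58% (6.30 to 11.3) of naive-like cells in the other. In neural-like cells the shares were 0 of 300 cells (0 to 1.22%) and 1.03% (0.21 to 2.98), and unthinned 0.67% and 2.41%. Without thinning the naive-like shares were 22.6% and 22.0%, at median depths of 10369 and 8626 UMIs. Barcodes with 1 to 50 UMIs, which hold free RNA, carried Dnmt3l at 4.34 and 5.63 CPM, Dnmt3b at 596 and 608 CPM and Tet1 at 48.4 and 50.1 CPM, or 82.4% and 78.9% of the cell level for Dnmt3b and 63.5% and 70.4% for Tet1. The naive-like level of Dnmt3l thus stood above that of free RNA in both libraries, while the intervals of its streak-like level and of free RNA (2.65 to 6.71 and 3.44 to 8.70 CPM) overlap. Free RNA had nearly the cells' composition, with the median gene at 92.8% and 92.1% of its cell level, and how much of a cell's UMIs it makes up was not measured.

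The genes that these 10 work with were read from 8 lists, chosen with earlier results of these data known. Of all genes at the level tested, 3.44% were past 0.32 between libraries. Of 12 genes acting with Dnmt1 and Uhrf1, 0 of the 11 at the level tested were past 0.32 between libraries, with a median log2 ratio of -0.04. Between classes 1 of 12 was past 2-fold in both libraries, beside 1.09% of all genes. It reaches the level tested only through naive-like cells, so nothing is read from that count. That gene was Dppa3, which displaces Uhrf1 from chromatin, at 27.4 against 0.68 CPM and 34.0 against 1.12 CPM, and it is the first of the leading genes of the naive-like cluster. Uhrf2, the paralogue of Uhrf1, stood at 43.0 against 52.6 CPM and 32.7 against 45.7 CPM, and Pcna, the clamp that carries Dnmt1 at the fork, at 237 CPM in the WT-labelled library and 200 CPM in the other.

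Of 11 partners and antagonists of the writers, 0 of 8 were past either limit. Of all genes, 3.44% were past the limit between libraries and 1.09% past that between classes. The lists are short, so no count in this paragraph is read as a result about its list. Nsd1, whose histone mark draws Dnmt3a, was 0.42 (0.30 to 0.54) and 0.45 (0.32 to 0.58) higher in naive-like cells on the log2 scale, and Nsd2 stood at -0.60 (-0.78 to -0.42) and -0.44 (-0.63 to -0.26). Of 19 demethylation partners 0 of 11 were past either limit. Ogt, a partner of Tet proteins, was 0.41 and 0.42 higher in naive-like cells, where Cxxc5, which binds unmethylated CpG, stood at -0.68 and -0.66. Of 16 partners of Trim28 and Zfp57, 0 of 13 were past 0.32 between libraries and 0 of 14 past 2-fold; the largest library ratio was that of Cbx5, a heterochromatin protein, at -0.27 (-0.30 to -0.24). Of 7 genes listed as readers of methylated DNA or their relatives, 3 reached the level tested and 0 were past 0.32. Nearest was Mbd3, such a relative and a subunit of the NuRD complex, at 93.8 and 112 CPM. Of 12 enzymes of methyl supply 1 of 9 was past it. This was Shmt2, a mitochondrial serine enzyme, at 40.1 and 55.3 CPM and a log2 ratio of 0.46 (0.40 to 0.52).

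Of 14 germline genes known to be silenced by promoter methylation, 1 reached the level tested between libraries and 3 between classes. Tex19.1, a gene of germ cells and pluripotent cells, stood at 42.2 against 8.47 CPM in naive-like and streak-like cells and at 34.8 against 8.77 CPM in the other library. Log2 differences were 2.32 (2.07 to 2.56) and 1.99 (1.73 to 2.24), so 2-fold was passed in both, by a gene that reaches the level tested only through naive-like cells. Ddx4, a germ cell helicase, had log2 differences of 0.25 (-0.14 to 0.60) and 0.27 (-0.21 to 0.69), and Sycp3, of the meiotic chromosome axis, -0.06 (-0.31 to 0.18) and 0.22 (-0.04 to 0.47). The 14 genes summed to 111 CPM (102 to 121) against 60.6 CPM (58.4 to 62.8) and to 104 CPM (95.2 to 114) against 51.1 CPM (49.4 to 52.9). Tex19.1 alone makes up a large part of that gap in both libraries, by the values above.

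Of 30 imprinted genes 29 were found and 20 reached the level tested, with 1 past 0.32 on the higher side and 5 on the lower side in the dko-labelled library, beside 1.42% and 2.02% of all genes. The higher gene was Snrpn, at 366 and 600 CPM. The lower ones were Grb10 at 67.1 and 10.1 CPM, Cdkn1c at 20.8 and 6.81 CPM and Phlda2 at 19.8 and 11.4 CPM, with Mest and Igf2r, named after their values were seen, at log2 ratios of -0.41 and -0.39. Their median log2 ratio was 0.11, on the other side of the median of all genes. Between naive-like and streak-like cells 0 of 20 were past 2-fold in both libraries, with Peg10 nearest at 0.91 (0.72 to 1.09) and 1.11 (0.95 to 1.28) and Mest at 0.97 and 0.80. Over all cells the library ratio of Zfp57 and Trim28 was under the limit of 0.32 beside these, though Zfp57 was at 0.50 in streak-like cells. Whether imprinted genes follow them was not tested.

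Over the 6 clusters and 2 libraries, or 12 points that share libraries, depth and cells, the genes of most similar profile on the log2(CPM + 1) scale were listed for each member. They were also taken over the 10 points without the shallow cluster 4, a choice made after seeing the data. There the nearest profile to Dnmt3l was that of Tex19.1 (Pearson r = 0.98), to Dnmt3b those of Fuom and Ddt (0.99 for both), to Tet3 that of Ebf1 (0.98), to Dnmt3a that of Baz2a (0.98) and to Tet1 that of Usp9x (0.98). With cluster 4 the first gene was another one for each of these 5, Nexmif for Dnmt3l, Pdzd4 for Dnmt3b, Tcaf1 for Tet3, Ttc37 for Dnmt3a and Trip12 for Tet1. Each gene named is the best match out of all genes with a mean of at least 10 CPM, over few points. A high r therefore follows from the choice, and nothing is read from its size.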

How the data were processed

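Single-cell 3′ libraries (10x Genomics chemistry) of 2 pooled gastruloid samples were read from UMI counts per gene and barcode, which the authors deposited unnormalized with all 6794880 possible barcodes. Cell Ranger 8.0.1 with default settings is named in the labels' protocols, and STARsolo, STAR 2.7.9a, Seurat 5.1.0 and mm10 are listed in the submitters' processing notes, without roles. How strand was handled is not given in the sources used here. An opposite-strand gene that was also counted overlaps Dnmt3a, Dnmt3b, Dnmt3l (Aire), Tet2, Tet3 and Trim28, so their counts are less certain. The labels give 9238 and 11190 cells with medians of 5333 and 5398 genes, and the deposited counts give fewer genes per cell, 3275 and 2884, for a reason not tested.

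Barcodes with at least 2500 UMIs, 1000 genes and at most 10% mitochondrial UMIs were kept. Counts were summed and scaled to CPM with a pseudocount of 0.5 in ratios. Intervals (95%) are exact Poisson, exact conditional for ratios of 2 sums, and Clopper-Pearson for shares; differences of ratios have Wald intervals. UMIs of 1 library are not replicates. Depth was 97157331 and 97644169 UMIs in cells. Clusters are Leiden clusters (leidenalg 0.10.2, scanpy 1.11.5) on 2000 variable genes, 30 components and 15 neighbours at a resolution of 0.5. A cluster took the class with most markers 1.5-fold or more higher, at least 3, a rule set after clusters were seen. Doublets were kept in the main values, and an alternative removes the top scores at 0.8% per 1000 cells (606 and 897 cells). TMM factors are from edgeR 4.0.16. The ratio script was tested on simulated counts and recovered 200 of 200 changed genes in each comparison. The planted changes were larger than the limits, in genes of at least 10 CPM, with Poisson noise only. Recovery was therefore bound to be high, and it checks the code and not the sensitivity in these data. Named genes are the members, at most 4 genes of a list with the largest ratio at a mean of 10 CPM, the genes of most similar profile, and markers. The members and lists were chosen with earlier results of these data known.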

Additional observations from a re-analysis of the deposited data

How the results depend on the processing

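The count of members past a log2 ratio of 0.32 between libraries was 0 under all 9 alternatives listed. Members are counted without the filter on low values, so the alternative that drops it could not change this count or the next. The count past 2-fold between naive-like and streak-like cells was 1 (Dnmt3l) under 9 of 12 alternatives, 2 (Dnmt3l and Zfp57) at resolutions of 0.3 and 1.0, and 3 (Dnmt3l, Tet2 and Zfp57) under the marker gate, which holds 30 and 16 naive-like cells. The gate takes cells of any cluster, so extraembryonic endoderm-like cells are not left out of it. Under that gate Dnmt3b was at -0.83 and -1.42 on the log2 scale and Dnmt3a at -0.29 in both libraries, against 0.36 and 0.58. No value past its limit changed sign; below the limit, Dnmt1, Dnmt3a, Dnmt3b, Tet2, Tet3 and Trim28 changed sign between naive-like and streak-like cells under an alternative. Without the filter on low values, 34.6% and 19.8% of all genes pass the 2 limits. No paired analysis was possible because each genotype has 1 library. Leaving out a replicate was likewise not possible. Depth limits Tet2 in every comparison, and Dnmt3l and Zfp57 in groups under 50 cells. The choices to leave out cluster 4 or a streak-like cluster, and the division by naive markers, were made after seeing the data.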
